A study of Mus musculus with 10 samples.

Results

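La and the La-related proteins are RNA-binding proteins that share the La module, a fold that holds the ends of RNA molecules. The family comprised 7 mouse genes, namely Larp1, Larp1b, Larp4, Larp4b, Larp6, Larp7 and Ssb, which encodes La itself. Members were chosen by name, and every read that the deposited table assigns to class mRNA and to 1 of these genes was counted. Reads were found for 6 of the 7 genes, 1337 reads in all, among 14423 genes with 2545103 reads in that class.

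LARP1 acts under the control of mTOR and holds the cap and the first bases of TOP mRNAs, which begin with a run of pyrimidines and encode ribosomal proteins and translation factors. LARP1B is its closest relative. LARP4 and LARP4B bind the poly(A)-binding protein, LARP4 also binds the poly(A) tail, and LARP6 binds a stem-loop of collagen mRNAs. LARP7 holds the 7SK RNA that keeps the elongation kinase P-TEFb inactive, and La protects the 3′ ends of RNA polymerase III transcripts. The siRNA against Larp1 raises the questions of whether it lowered other family mRNAs and whether any of them rose in its place.

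P19 cells are a pluripotent mouse embryonal carcinoma line, here wild type and undifferentiated in all groups. The siLarp1 cells received 50 nmol of an siRNA against Larp1, and the siCtl cells a pool of scrambled siRNAs, both with Lipofectamine. RNA was taken after 24 h (3 libraries per treatment), or after 48 h with another transfection at 24 h (2 per treatment). The siRNA is 1 reagent, so a second sequence against Larp1 was not analysed here. The methods call the libraries biological replicates, the labels name no separate cultures, and p-values measure the spread between these libraries only. Poly(A) RNA was sequenced directly on Nanopore flow cells, so 1 read is 1 molecule, read from its 3′ end, with an estimate of its poly(A) tail. The libraries are called 19, 21 and 22 (24 h) and 24 and 25 (48 h), as in the table, because which labelled replicate each one is was not stated. The 24 h libraries held 368458 to 535197 reads of class mRNA in siCtl and 146993 to 192842 in siLarp1, and the 48 h libraries 140014 to 219141. At 24 h each treatment was multiplexed on its own, so that its effect and that of the pool cannot be told apart, while the 4 libraries of 48 h went into 1 pool. All 7 pluripotency markers examined had reads, led by Pou5f1 at 2192 to 2809 RPM, and the summed level of 4 endoderm markers was at most 5.19 RPM, with Afp at 0. The 5 neuronal markers summed to between 28.6 and 85.6 RPM, Tubb3 alone had 28.6 to 81.0 RPM, and Neurod1 had 0 reads.

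Abundance is given in RPM, the reads of a gene per 1000000 reads of class mRNA in the library. In the 5 siCtl libraries the lowest, median and highest level of Ssb were 182.5, 194.3 and 235.7 RPM, and those of Larp7 were 129.6, 178.6 and 230.7 RPM. Larp1 had 73.3, 83.3 and 142.8 RPM, Larp4 had 32.4, 43.0 and 54.8 RPM, and Larp4b had 11.2, 13.9 and 27.4 RPM. Larp1b had 4.56, 8.14 and 14.3 RPM, or 1 to 6 reads per library. As 1 read is 1 molecule, the RPM values above compare the genes without scaling by length. Values per kilobase follow as a second scale only, which also reflects transcript length. Larp4b had a higher median than Larp1b in RPM, and a lower one per kilobase. Per kilobase of the transcript with the most reads, the siCtl medians were 97.1 RPM per kb for Ssb, 84.2 for Larp7, 12.6 for Larp1, 6.58 for Larp4, 4.78 for Larp1b and 2.43 for Larp4b. On the scale per kilobase, the ranges of Ssb and Larp7 overlapped, as did those of Larp4 and Larp1b and of Larp1b and Larp4b. With the reads on its coding transcript alone, described further on, Larp7 had 36.0 to 45.8 RPM per kb with a median of 40.9, which did not overlap the range of Ssb. In RPM, the lowest, median and highest level of that transcript alone were 76.4, 86.8 and 97.2, which overlapped the range of Larp1 and not that of Ssb. Per kilobase, the range of Larp1 overlapped neither that of Larp7 nor that of Larp4, while in RPM it overlapped that of Larp7. Reads did not cover the mRNAs evenly, as the median alignment spanned 17.1% of the main Larp1 transcript and 82.3% of that of Ssb.

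Larp6 had 0 reads in each of the 10 libraries. With 2545103 reads over all libraries, a count of 0 allows a level of up to 1.18 RPM (3 reads), a limit that covers counting error only. The gene is annotated on chromosome 9 (GRCm38, 60712989 to 60738801). A change of Larp6 was therefore not detectable at this depth.

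Larp1 mRNA, which the siRNA targets, fell in the fit over both times, and at either time all siLarp1 libraries lay below all siCtl libraries. Its level at 24 h was 73.3, 83.3 and 74.7 RPM in the siCtl libraries 19, 21 and 22, and 34.0, 36.7 and 20.7 RPM in the siLarp1 libraries of the same numbers. At 48 h it was 142.8 and 123.2 RPM in the siCtl libraries 24 and 25, against 30.2 and 27.0 RPM in the siLarp1 libraries. The groups did not overlap at either time. Of 6541 genes with at least 30 reads, 1.09% were lower without overlap at both times. At 24 h the siLarp1 mean of 30.5 ± 8.56 RPM (SD, n = 3) was 39.6% of the siCtl mean of 77.1 ± 5.43 RPM (SD, n = 3). At 48 h the siLarp1 mean of 28.6 ± 2.30 RPM (SD, n = 2) was 21.5% of the siCtl mean of 133.0 ± 13.9 RPM (SD, n = 2). The exact permutation test (two-sided) gave p = 0.1 at 24 h and p = 0.3333 at 48 h, the smallest values that such groups allow, and p = 0.0167 over both times, again the smallest possible. These levels rested on 27 to 40 reads per siCtl and 4 to 6 per siLarp1 library at 24 h, and on 20 and 27 against 6 and 4 at 48 h. In bulk RNA, fewer cells with the mRNA and less of it per cell cannot be told apart.

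**Figure D1:**
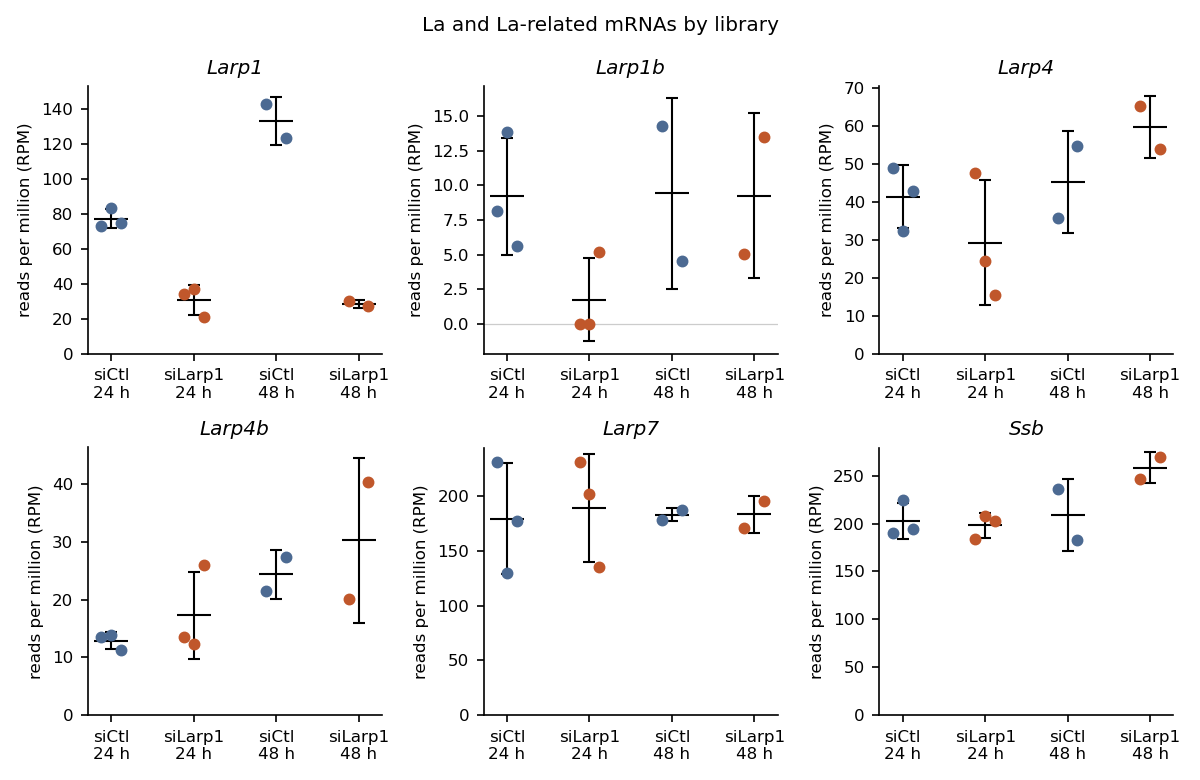
Level of 6 family mRNAs in RPM (vertical axis, from 0) in each library (points), by treatment and time (horizontal axis), with the mean and SD of each group (bars). Larp1 lay between 20.7 and 36.7 RPM in the 5 siLarp1 libraries and at 73.3 RPM or above in the 5 siCtl libraries. The treatments also did not overlap for Larp1b at 24 h (siLarp1 lower) and for Ssb at 48 h (siLarp1 higher). In the other panels, and at the other time for Larp1b and Ssb, they overlapped.

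In limma voom with Benjamini-Hochberg adjustment, the log2 fold change of Larp1 over both times was −1.68 (SE 0.30, 95% interval −2.28 to −1.09, adjusted p = 0.00225), a fold of 0.311. It had the lowest p-value and the lowest fold change of the 6541 genes tested, of which 0.0764% were called lower, 0.0612% higher and 0.138% in either direction. Without the siLarp1 library 24, which leaves 1 siLarp1 library at 48 h, the log2 fold change of Larp1 was −1.72. The size of the fall was thus kept, but Larp1 was not called in that fit. At single time points Larp1 was not called, with −1.29 (SE 0.37, adjusted p = 0.556) at 24 h, where 0.0306% of genes were called, and −2.08 (SE 0.46, adjusted p = 0.0796) at 48 h, where 0.0153% were. The change at 48 h minus that at 24 h was −0.78 (95% interval −1.97 to 0.40, adjusted p = 0.973), so a difference between the times was not detectable. The siLarp1 levels were alike at both times, at 30.5 and 28.6 RPM, while the siCtl level was 77.1 RPM at 24 h and 133.0 RPM at 48 h. Of its 175 alignments, 153 were on ENSMUST00000178636.1 (19 exons, 6617 nt) and 22 on ENSMUST00000071487.12 (19 exons, 6614 nt), both at GRCm38 chromosome 11, starting at 58009064 on the plus strand. Only 1 of the 175 had a mapping quality of at least 10, so a filter on this score removes the gene.

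Larp1b is the member nearest to Larp1 in sequence, and its 19 reads lay under the minimum of 30 reads for the fit. At 24 h it had 3, 6 and 3 reads in the siCtl libraries, and 0, 0 and 1 in the siLarp1 libraries. The siLarp1 mean was 1.73 ± 2.99 RPM (SD, n = 3) and the siCtl mean 9.21 ± 4.24 RPM (SD, n = 3), without overlap (exact permutation test, p = 0.1). At 24 h 6.08% of genes were lower in this way, 5.41% higher and 11.5% either. The ratio of the pooled reads, 1 against 12, was 0.221 with an exact 95% counting interval of 0.00518 to 1.495, which includes no change. The fit with a minimum of 1 read called 647 genes at 24 h, against 2 with the minimum of 30, which limits what its intervals show. There the log2 fold change of Larp1b at 24 h was −1.21 (95% interval −2.39 to −0.0246, limma adjusted p = 0.281), an interval that leaves out 0. Its 48 h reads were 2 and 1 in siCtl and 1 and 2 in siLarp1, a ratio of 1.03 (0.139 to 7.73). Over both times the difference was −3.83 RPM (exact permutation test, p = 0.217). Larp1b did not rise detectably, and a ratio of several fold at 48 h is within the interval.

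The share of Larp1 among the reads of both paralogs is a measure within each library, free of its depth. It was 85.7% to 93.0% in siCtl and 80.0% to 100% in siLarp1 libraries at 24 h, and 90.9% and 96.4% against 85.7% and 66.7% at 48 h. Over both times it differed by −6.86 percentage points (exact permutation test, two-sided, p = 0.433). The siLarp1 shares rested on 5 to 7 reads each, and the exact 95% interval of the siLarp1 library 25 was 22.3% to 95.7%.

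Larp4, whose protein binds poly(A)-binding protein and lengthens tails, gave no call. The Larp4 level was 48.9, 32.4 and 43.0 RPM in siCtl and 47.6, 24.5 and 15.6 RPM in siLarp1 at 24 h, and 35.7 and 54.8 RPM against 65.4 and 53.9 RPM at 48 h. The groups overlapped at both times. The fitted log2 fold change was −0.58 at 24 h and 0.36 at 48 h, and −0.11 over both (95% interval −0.74 to 0.52, limma adjusted p = 0.972). The interval spans folds from 0.601 to 1.43. Larp4 had 107 alignments, 106 of them on ENSMUST00000100206.3 (GRCm38 chromosome 15, 99972780 to 100016358, 6530 nt).

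Larp4b, the second poly(A)-binding-protein partner of the family, was rarer. It had 13.6, 13.9 and 11.2 RPM in siCtl and 13.6, 12.2 and 25.9 RPM in siLarp1 at 24 h, and 21.4 and 27.4 RPM against 20.1 and 40.4 RPM at 48 h. The groups overlapped at both times. Over both the log2 fold change was 0.33 (SE 0.42, 95% interval −0.50 to 1.16, limma adjusted p = 0.927), so folds up to 2.24 remain within the interval. Its main transcript, ENSMUST00000091829.3, lies on GRCm38 chromosome 13 (9093982 to 9174451).

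Ssb, which encodes La, had 190.0, 224.5 and 194.3 RPM in siCtl and 183.7, 208.2 and 202.2 RPM in siLarp1 at 24 h. At 48 h it had 235.7 and 182.5 RPM in siCtl and 246.6 and 269.5 RPM in siLarp1, without overlap (exact permutation test, p = 0.3333, the smallest possible). Of the 6541 genes, 33.6% did not overlap at 48 h, 18.5% higher and 15.1% lower. The log2 fold change was −0.02 at 24 h, 0.34 (SE 0.24) at 48 h and 0.16 over both (95% interval −0.14 to 0.46, limma adjusted p = 0.901). With the most reads, Ssb had the narrowest interval of the family over both times, from folds of 0.909 to 1.38. Of its 533 alignments, 375 were on ENSMUST00000090852.10 (GRCm38 chromosome 2, 69861562 to 69871786, 12 exons, 2001 nt), and 9 of these ended within 50 nt of its annotated end. Of all 533, 184 had a mapping quality of at least 10. With that filter the log2 fold change of Ssb was 0.03 at 48 h and −0.10 over both times.

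Larp7 had 230.7, 129.6 and 177.5 RPM in siCtl and 231.3, 202.1 and 134.8 RPM in siLarp1 at 24 h, and 178.6 and 187.1 RPM against 171.1 and 195.4 RPM at 48 h. The groups overlapped at both times. The log2 fold change over both was 0.03 (95% interval −0.32 to 0.38, limma adjusted p = 0.987). These levels include reads on annotated retained-intron transcripts, described with their sequences further on. With the coding transcript alone the value turned to −0.27 (95% interval −0.75 to 0.21, adjusted p = 0.889), also without a call.

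**Figure D2:**
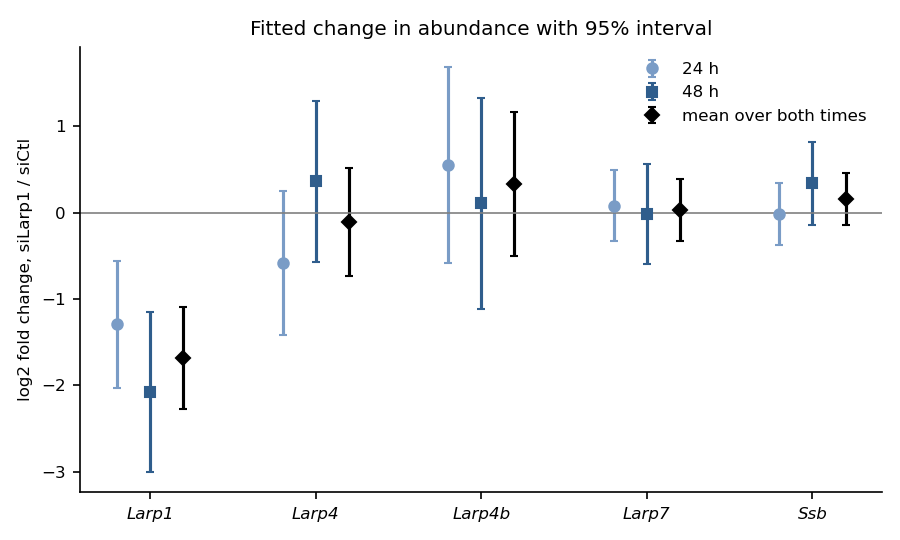
Fitted log2 fold change of siLarp1 over siCtl (vertical axis) of the 5 members with at least 30 reads (horizontal axis), with 95% intervals, at 24 h, 48 h and over both times. The interval of Larp1 lies below 0 at each of the 3, and those of Larp4, Larp4b, Larp7 and Ssb span 0.

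The other 6 members summed to 414.3 to 491.2 RPM in siCtl and 383.7 to 476.2 RPM in siLarp1 at 24 h, with overlap. At 48 h they summed to 456.3 and 485.7 RPM in siCtl and 508.4 and 572.7 RPM in siLarp1, without overlap. Of the single genes, 18.5% were higher without overlap at 48 h, and the difference of the sum was not tested. Larp1 made up 13.0% to 16.7% of the family's reads in siCtl and 5.13% to 7.59% in siLarp1 at 24 h, and 21.3% and 22.7% against 4.49% and 5.61% at 48 h. Both the sum and this share include the Larp7 reads on retained-intron transcripts, described further on. Of the 5 members tested, 1 was called over both times, the target itself, beside 0.138% of all genes. For the other 4 the intervals bound what a fall or a rise could have been, and they do not show that the levels were equal.

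Poly(A) tails of the members were compared on reads of PASS quality. In the siCtl libraries together, the mean tail was 136.9 nt for Larp7, 129.5 nt for Ssb, 124.8 nt for Larp4 and 118.6 nt for Larp1. The median over 4675 genes with at least 30 such reads was 113.3 nt, so each of these 4 members lay above it, and Larp7 at the percentile 91.7. For Larp7 this turns with the reads counted, as its coding transcript alone (118 reads) had a mean of 111.4 nt, at the percentile 44.5. Larp4b (22 reads) and Larp1b (12 reads) were under that minimum.

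None of the 5 members tested was called for its mean tail at either time or over both, beside 0.0% of the 5460 genes tested. At an unadjusted p under 0.05, limma gave 189 genes with longer and 130 with shorter tails over both times, and 0 of the members were among them. For Larp1 at 24 h, the library means were 130.5, 114.9 and 118.1 nt in siCtl and 103.9, 100.2 and 114.8 nt in siLarp1, without overlap. Of 5153 genes with a tail in each 24 h library, 6.19% were lower without overlap and 5.82% higher. The siLarp1 means of Larp1 rested on 4, 6 and 3 reads. The weighted fit gave −15.5 nt (95% interval −50.9 to 20.0, limma adjusted p = 0.964). At 48 h the means were 134.4 and 98.6 nt in siCtl and 149.4 and 130.3 nt in siLarp1, with overlap, from 3 reads per siLarp1 library, and the fit gave 24.6 nt (−27.5 to 76.8, adjusted p = 0.964).

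The Ssb tails were the best measured, on 21 to 85 reads per library. At 24 h they averaged 132.8 ± 3.88 nt (SD, n = 3) in siCtl and 128.8 ± 2.12 nt (SD, n = 3) in siLarp1, with overlap. The 48 h means were 118.7 and 116.5 nt in siCtl and 134.3 and 122.8 nt in siLarp1, without overlap, as in 34.6% of 5460 genes at 48 h (20.1% higher and 14.5% lower). The fit gave 11.5 nt for Ssb at 48 h (95% interval −8.25 to 31.2, limma adjusted p = 0.958). Over both times the Ssb interval ran from −8.30 to 16.3 nt. The Larp4 means ranged from 79.7 to 150.4 nt over the libraries, and its fit over both gave −1.55 nt (−33.5 to 30.4, adjusted p = 0.997).

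Larp4b gave the largest fitted difference among the 5 members, 43.4 nt over both times (95% interval −2.21 to 89.1, limma adjusted p = 0.859). Its means were 91.3, 150.1 and 100.2 nt in siCtl and 148.4, 89.1 and 175.7 nt in siLarp1 at 24 h, and 166.4 and 104.4 nt against 220.4 and 164.5 nt at 48 h. The groups overlapped at both times, and no library had more than 5 PASS reads of Larp4b. The Larp7 means at 48 h, 142.4 and 123.8 nt in siCtl against 151.2 and 153.6 nt in siLarp1, did not overlap either, beside the same 34.6% of genes. The fit over both times gave 18.0 nt for Larp7 (−6.38 to 42.4, adjusted p = 0.889), and with the coding transcript alone this turned to −4.78 nt (−25.7 to 16.1, adjusted p = 0.988).

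**Figure D3:**
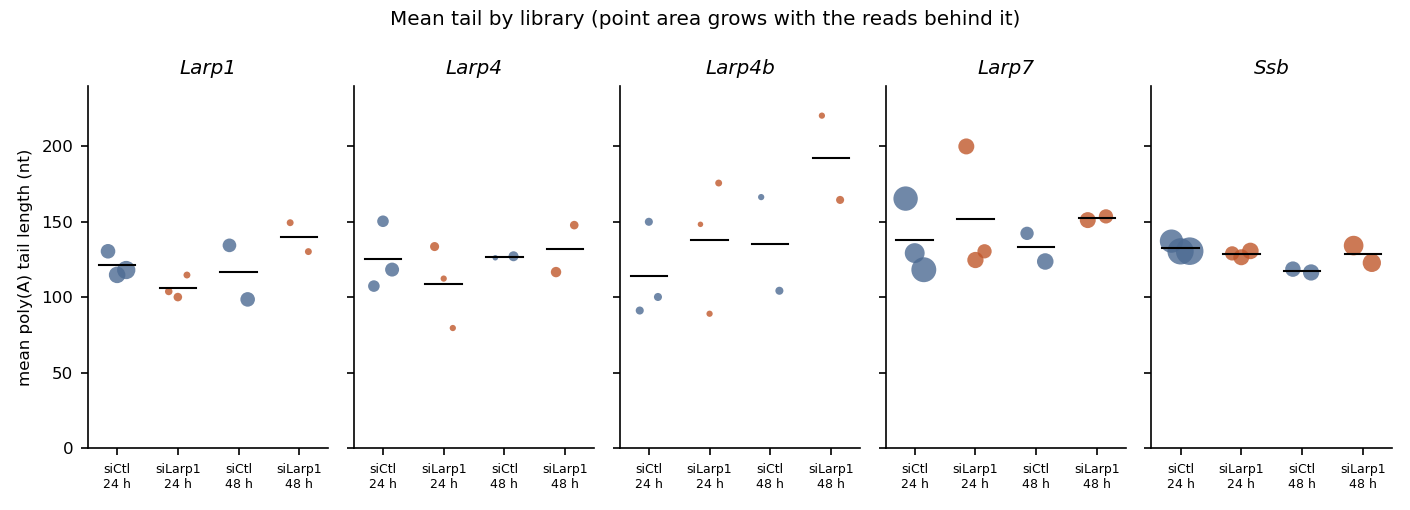
Mean poly(A) tail length in nt (vertical axis, from 0) of 5 members in each library (points, whose area grows with the PASS reads behind them), by treatment and time, with the mean of the library means (line). The Ssb means lie between 116.5 and 137.2 nt, while those of Larp4b, on 1 to 5 reads each, spread from 89.1 to 220.4 nt.

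In siCtl, short tails made up at most 6.25% of the reads of any member. Tails under 30 nt made up 8 of 128 Larp1 reads in siCtl (6.25%, exact 95% interval 2.74% to 11.9%) and 1 of 19 in siLarp1 (5.26%, 0.133% to 26.0%). Ssb had 7 of 275 in siCtl (2.55%) and 7 of 155 in siLarp1 (4.52%), 5 of the latter in the siLarp1 library 24. Larp7 had 4 of 225 and 1 of 124, and Larp4 had 1 of 56 and 1 of 27. No member was called for this share at 24 h or 48 h, where 0.0216% of 4626 genes were at each time, or over both, where 0.346% were, all higher. Larp4b had 1 of 22 and 0 of 13, and Larp1b, which was not tested, had 0 of 12 and 1 of 4. The share of tails of 30 to 90 nt (~60-nt tails) likewise gave no call for a member. At 24 h 0.11% of 5460 genes were called for it, at 48 h 0.0% (84 higher and 223 lower unadjusted), and over both 0.201%, 0.11% higher and 0.0916% lower. In Larp7 this class held 35.6% of the reads in siCtl and 36.3% in siLarp1, and in Ssb 30.9% and 29.7%.

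The reads assigned to Larp7 fell into 3 sets with different ends and tails, a pattern described here after its values were seen and given without a test. Larp7 lies on the minus strand of chromosome 3 (GRCm38, 127536714 to 127553349). Of its 459 alignments, 211 were on the coding transcript ENSMUST00000029588.9 (13 exons, 2121 nt), and 97.2% of these ended within 50 nt of its annotated 3′ end. The other 248 (54.0%) were on annotated retained-intron transcripts, 165 on the shorter ENSMUST00000197698.1 (733 nt) and 83 on the longer ENSMUST00000195976.1 (1391 nt). Of 3130 genes with at least 100 alignments, 12 (0.383%) had such a share or a higher one, and the median was 0%.

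These alignments had near-uniform edges inside the gene. On both transcripts the commonest start lay within 1 base of the first base of exon 5 of the coding transcript (127546818), and the commonest alignment spanned 188 nt on the shorter and 835 nt on the longer one. A start within 10 nt of the commonest one was found in 97.0% and 95.2% of the alignments, and such an end in 88.5% and 79.5%. The sequences at these edges are shown from GENCODE vM21, on the Larp7 strand, with the aligned side in capitals, because they fix where the molecules meet the annotation.
Start on both transcripts: cgcacggtatatgtgGAGTTGCTCCCCAAA
End on the shorter transcript: CTTCTGTGGGACCCTgaaaagtaaagaaaa
End on the longer transcript: AGAGTGCTGTCCAAGactgaatggatggat
The start falls within 1 base of the junction of exons 4 and 5, and the end on the longer transcript within 1 base of that of exons 8 and 9. The end on the shorter transcript lies in the retained intron, at 127546632, and 11 of the 15 bases after it are A.

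The same stretch carries genes of the opposite strand. RefSeq places the lncRNA gene Gm51018 on the plus strand at 127545089 to 127546903 (GRCm38.p6), and the aligned blocks of both transcripts lie within it, apart from single edge bases at the commonest start (127546921) and, on the longer transcript, at the commonest end (127544278), which lie outside it. The hairpins of the miR-302 cluster, microRNAs of pluripotent cells, lie on the plus strand at 127545228 to 127545807, in the intron after exon 8. The last of the 5 hairpins is 18 bases from the nearest of these blocks, which is on the longer transcript, and the first base of exon 5 is 85 bases from the end of Gm51018. Mature microRNAs of this cluster are shown from RefSeq, with the seed (bases 2 to 8) in capitals, to name the neighbours of the aligned blocks, except that of Mir302a, which is named only.
mmu-miR-302b-3p: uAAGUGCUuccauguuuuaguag
mmu-miR-302c-3p: aAGUGCUUccauguuucagugg
mmu-miR-302d-3p: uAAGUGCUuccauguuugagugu
mmu-miR-367-3p: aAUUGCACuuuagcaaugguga
The 302b and 302d forms share the seed AAGUGCU, that of 302c is the same run moved by 1 base (AGUGCUU), and the last one is another (AUUGCAC). The deposited table gives no strand for an alignment, so reads of Larp7 and reads of a gene on the opposite strand cannot be told apart here, and the part of Gm51018 in these counts was not tested.

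**Figure D4:**
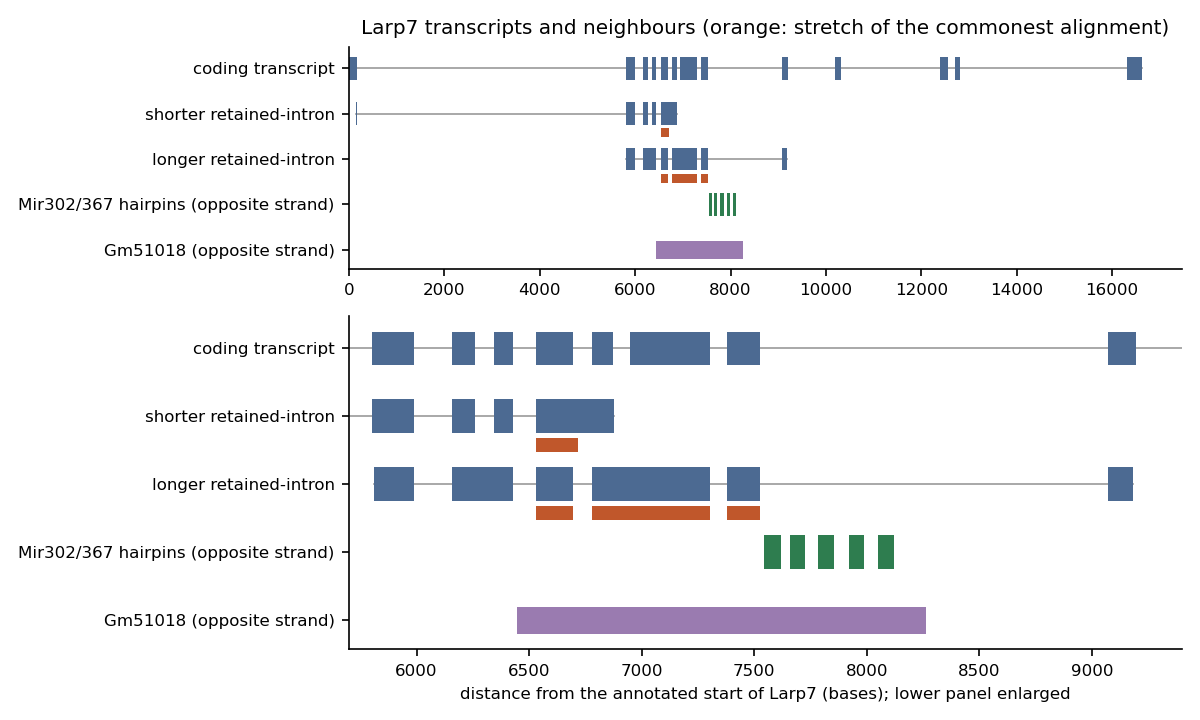
Exons of 3 Larp7 transcripts (blue), the stretch of the commonest alignment on each retained-intron transcript (orange), the miR-302 cluster hairpins (green) and Gm51018 (purple), by distance in bases from the annotated Larp7 start (horizontal axis, lower panel enlarged). The blocks drawn lie within the extent of Gm51018, single edge bases are not drawn, and those of the longer transcript reach to 18 bases from the hairpins.

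Tails differed between the sets. The coding transcript had a mean tail of 107.1 nt (median 91.9 nt, 174 PASS reads), the shorter retained-intron transcript 134.4 nt (median 109.9 nt, 123 reads) and the longer one 280.0 nt (median 286.4 nt, 52 reads). The mean of the longer one was the highest of 6466 transcripts with at least 30 PASS reads, whose median was 113.45 nt. In each of the 10 libraries it exceeded the mean of the coding transcript, with library means of 230.4 to 416.9 nt against 83.2 to 124.8 nt. The library means of the longer transcript rested on 1 to 14 PASS reads, and the highest, in the siCtl library 21, on 1 read. The middle 50% of the reads on the longer transcript lay between 239.97 and 315.0 nt, and none was under 30 nt.

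The sets also varied between libraries. The longer retained-intron transcript took 24.7% of the Larp7 alignments in the siCtl library 19 and 50.0% in the siLarp1 library 19, against 8.33% to 21.2% in the other 8 libraries. In RPM it stood at 57.0, 11.6 and 14.9 in siCtl and 115.7, 42.9 and 15.6 in siLarp1 at 24 h, and at 28.6 and 27.4 against 30.2 and 40.4 at 48 h. The Larp7 tail means of both libraries 19, 165.4 and 199.97 nt, were the highest of the 10 libraries. The coding transcript had 86.8, 76.4 and 97.2 RPM in siCtl and 74.8, 104.1 and 62.2 RPM in siLarp1 at 24 h, and 78.6 and 91.3 RPM against 50.3 and 87.6 RPM at 48 h, with overlap at both times.

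**Figure D5:**
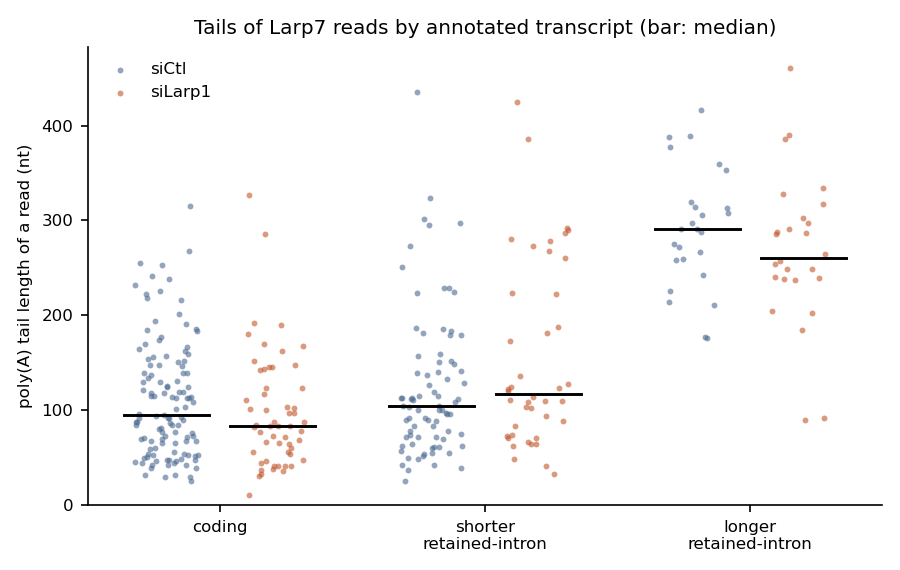
Poly(A) tail length in nt (vertical axis, from 0) of each PASS read of Larp7 (points), by annotated transcript and treatment, with the median (bar). Reads on the longer retained-intron transcript centre near 286.4 nt, and those on the coding transcript near 91.9 nt.

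Genes that work with the family were examined by lists, 28 genes in all, of which 23 had enough reads to be tested. None was called at 24 h, at 48 h or over both, where 0.138% of all genes were called. Unadjusted p-values of limma were under 0.05 for 5 of the 23 genes at 24 h, 2 at 48 h and 3 over both, beside 5.99%, 5.11% and 6.76% of all genes, and 15 of the 23 fitted values over both lay above 0. The median log2 fold change of all genes was 0.03. Among 7SK and P-TEFb partners of LARP7, 0 of 6 tested were called, with a median of 0.34 and a range of −0.09 to 1.00. Cdk9, the P-TEFb kinase, had 0.10 (SE 0.24, limma adjusted p = 0.968).

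The list of poly(A)-binding, cap-binding and mTORC1 partners of LARP1 and LARP4 had 9 genes tested, 0 called and a median of 0.13. Rack1, a ribosome-bound scaffold, had −0.07 (SE 0.05) on 12183 reads, and Pabpc1, the main cytoplasmic poly(A)-binding protein, had 0.13 (SE 0.09, limma adjusted p = 0.834). Of the La and RNA polymerase III partners, 0 of 6 were called, with a median of 0.33. Maf1, a repressor of that polymerase, had 0.37 (SE 0.27), and its subunit Polr3k had 0.04 (SE 0.30). Of the 5 targets and partners of LARP6, Strap and Vim were tested and not called, at 0.13 (SE 0.12) and −0.18 (SE 0.15). The collagen mRNAs Col1a1 and Col1a2 had 5 and 10 reads, and Col3a1 had 0. Of 21 of these genes with tails to test, 0 were called for mean tail length.

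The mRNAs whose levels followed Larp1 most closely over the 10 libraries, after the mean of each time point was removed, were Ctsz (r = 0.93), Rtraf (r = 0.91) and Pes1 (r = 0.90), among 3113 genes with at least 100 reads. Ctsz encodes a lysosomal protease, Rtraf a subunit of the tRNA ligase complex, and Pes1 a factor of ribosome assembly. They are named as a description, since the libraries share the siRNA contrast. Their log2 fold changes over both times were −0.49, −0.44 and −0.39, and none was called (limma adjusted p = 0.790, 0.251 and 0.681). Among the members, Larp4 and Larp7 had r = 0.17 and 0.02 with Larp1, and Ssb had r = −0.43.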

How the data were processed

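The authors called bases with Guppy, assigned barcodes with Deeplexicon, aligned reads with Minimap2 2.20 to GENCODE transcripts of mouse build mm10 and estimated tails with Nanopolish. Each line of the deposited table is 1 alignment of 1 read, and gives its tail in nt, the barcode confidence (a fraction) and the mapping quality (a score). Reads were tallied here per gene of class mRNA, once per gene, with all quality tags for abundance and PASS for tails, so no deposited counts were used. Abundance was tested with limma 3.58.1 (R 4.3.3) voom, 1 mean per group over 10 libraries, for genes with at least 30 reads, and tails with limma weighted by PASS reads. Calls had a Benjamini-Hochberg adjusted p under 0.05. Exact permutation tests were two-sided and unadjusted (6 members, each time). On simulated data the fits were run to look for recovery of known changes. That simulation held no effect of pool or library number, and its outcome is not reported here. Members and lists were chosen with earlier results of these data known. Named partners were those called or, failing that, the 2 with most reads per list, and the 3 genes most like Larp1. The values of 1 listed gene are not reported here. Intervals and limits of reads cover counting error only. The siRNA sequence is not given in the sources used here.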

Additional observations from a re-analysis of the deposited data

How the results depend on the processing

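The fall of Larp1 over both times kept its direction under every alternative run in which the gene was tested. It kept its call in those runs except the fit without the siLarp1 library 24, which leaves 1 library in that group. The filter on mapping quality left too few Larp1 reads for a test. Leaving out 1 library at a time gave log2 fold changes of −1.77 to −1.55 over both times, −1.46 to −1.02 at 24 h and −2.21 to −1.99 at 48 h. Larp1 was called at 24 h with a minimum of 1 read (−1.29). At 48 h it was called without mitochondrial transcripts and pseudogenes (−2.08), with a minimum of 100 reads (−2.08), in limma-trend with a pseudocount of 10 (−1.89) and with a replicate block (−2.11), and also without the siCtl library 21 (adjusted p = 0.0419) or 22 (adjusted p = 0.0473) of 24 h. The Larp1b difference ranged from −6.26 to −1.40 RPM and the Larp1 share from −11.6 to −2.10 points when 1 library was left out. Whether the library numbers pair the samples was not stated, and the main fit does not pair them. After group means were removed, libraries of the same number correlated at 0.03, 0.10 and 0.16 at 24 h and 0.03 at 48 h. At 24 h 6 of 6 libraries correlated best with their own number, so a pairing by number remains possible. The replicate block raised the genes called for abundance to 11 at 24 h, 15 at 48 h and 31 over both.

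Uncalled values near 0 changed sign, without a call. Larp7 turned with the coding transcript alone (−0.13 at 24 h, −0.27 over both; tails −18.5 and −4.78 nt), with a barcode confidence of at least 0.9 (−0.0379 over both), and at 48 h with PASS reads (0.0737), in limma-trend (0.000703 and 0.000792) and with the block (0.00591). Larp4 turned at 48 h with the barcode filter (−0.0434; tail −27.0 nt), and over both with PASS reads (0.00350) and equal depth (0.0532). Its tail turned with all quality tags (−0.888 nt) and geometric means (−1.92 nt) at 48 h, and with the block (6.22 nt) and medians (5.03 nt) over both. Larp4b turned at 48 h with PASS reads (−0.20) and a mapping quality of at least 10 (−0.10). Ssb turned with that mapping quality over both (−0.10) and with medians in its 24 h tail (5.87 nt). With 1 library left out, these log2 fold changes lay from −0.12 to 0.33 for Larp7 at 24 h, −0.102 to 0.0927 at 48 h and −0.0701 to 0.157 over both, −0.288 to 0.0902 for Larp4 over both, −0.30 to 0.65 for Larp4b at 48 h and −0.0524 to 0.0573 for Ssb at 24 h. Tail differences lay from −5.02 to 12.9 nt for Larp1 over both, −28.3 to 5.88, −10.4 to 20.7 and −13.5 to 8.17 nt for Larp4 at 24 h, 48 h and over both, −4.97 to 55.0 nt for Larp4b and −11.2 to 31.1 nt for Larp7 at 24 h.

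Counts of genes called moved with most settings. For abundance at 24 h (2 genes) the count was 1 with each time on its own, limma-trend with a pseudocount of 10, the mapping quality filter, median-of-ratios factors or a minimum of 100 reads, 0 with equal depth, limma-trend with a pseudocount of 1 or PASS reads, and 647 with a minimum of 1 read. At 48 h (1 gene) it was 0 with the barcode filter, equal depth, limma-trend with a pseudocount of 1 or PASS reads, 15 with a minimum of 1 read, 2 with 100, 3 with reads aligned to 1 sequence and 5 without mitochondrial transcripts and pseudogenes. Over both (9 genes) it was 3 with the barcode filter, 4 with equal depth, 2 and 3 in limma-trend, 4 with the mapping quality filter, 29 and 5 with minimums of 1 and 100, and 4 with quantile normalization. For the difference between times (0 genes) it was 2 with a minimum of 1 read and 1 with the block. For mean tails over both (0 genes) it was 1 with geometric means. For <30-nt tails at 24 h (1 gene) it was 0 with all tags, the mapping quality filter or the block, 2 with log2 odds and 5 unweighted. At 48 h (1 gene) it was 0 with all tags, the mapping quality filter or the block, 2 with the barcode filter, 6 with a minimum of 100 reads and 14 unweighted. For ~60-nt tails at 24 h (6 genes) it was 2 with log2 odds and 0 unweighted. With 1 library left out these counts ran from 0 to 4 at 24 h, 0 to 5 at 48 h and 0 to 8 over both for abundance, 0 to 5 and 0 to 213 for <30-nt tails, and 4 to 14 and 0 to 2 for ~60-nt tails. A lone 48 h library is assumed to vary like the other groups. Larp1b and Larp6 had under 30 reads, and few reads per library limit every tail value of Larp1, Larp4 and Larp4b.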
